A study of Mus musculus with 12 samples.

Results

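The genes described here belong to the unfolded protein response, the programme by which a cell answers the build-up of misfolded proteins in its endoplasmic reticulum (ER). Members were taken as every probe whose annotated symbol was Hspa5, Hsp90b1, Calr, Canx, Pdia4, Pdia6, Xbp1, Atf4, Ddit3 or Herpud1, which gave 15 probes of 10 genes among 45281 probes and 19057 named genes on the array. RNA levels were measured on 12 Illumina bead arrays, 3 for each of 4 groups of male FVB mice. The liver groups were wild type or knockout for Cav1, the gene of the caveola coat protein caveolin-1, at 12 weeks of age. The gonadal white adipose tissue (GWAT) groups were labelled wild type or Cav1 knockout at 8 weeks of age. Nothing in the labels ties the replicates to separate animals, and p-values therefore cover the spread between samples, possibly a technical one. They give neither the knockout allele nor how the line was made.

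Cav1 itself gave the check of the labels. In liver its single probe gave 183 ± 23.8 (SD, n = 3) for wild type and 114 ± 3.60 (SD, n = 3) for the knockout, where it was not well above background on any of the 3 arrays. The ratio of the uncorrected means, knockout over wild type, was 0.620. After background correction Cav1 was at least 2.89-fold lower against the background threshold (limma, adjusted p = 0.0273), a bound that holds on the corrected scale alone. Without correction the measured log2 difference was -0.68, and at an offset of 50 it was -0.96. The call was lost on leaving out any wild-type array or knockout replicate 2 (adjusted p from 0.0681 to 0.135). In GWAT the arrays labelled wild type read 110.2 ± 2.26 (SD, n = 3) and the arrays labelled knockout read 15729 ± 1535 (SD, n = 3), a log2 difference of 7.87 (limma, adjusted p = 4.04e-13). The GWAT labels therefore go against the level of the gene they name. Every GWAT direction below is that of the arrays as labelled, and each would turn if the labels were exchanged.

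The unfolded protein response starts from sensors in the ER membrane. IRE1 splices the Xbp1 transcript into the form that encodes an active transcription factor, PERK phosphorylates eIF2α and so raises translation of Atf4, and ATF6 is cut to release its own transcription factor. XBP1 and ATF6 raise ER chaperones, protein disulfide isomerases and degradation factors, while ATF4 raises amino acid and redox genes and Ddit3, which encodes CHOP. Liver carries a heavy secretory load and adipocytes secrete adipokines, and both tissues use this response. An array of this kind reads transcript amounts, so it shows neither Xbp1 splicing nor eIF2α phosphorylation.

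The response is known to act on several of these genes through the ER stress element ERSE, spelled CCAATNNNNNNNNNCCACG, which was searched on both strands of RefSeq promoter windows reaching from 250 bases before to 50 after the annotated start (assembly GRCm38.p6). All 10 genes had a window. ERSE was present in 39 of 32851 windows (0.119%) and in those of 5 of the 10 genes. The elements are shown because they are the common sequence of the chaperone genes in the set, with the fixed letters in capitals and the 9 spacer bases in lower case, each read 5′ to 3′ on the strand that carries it.
Hspa5: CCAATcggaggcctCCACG
Hsp90b1, farther element: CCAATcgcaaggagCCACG
Hsp90b1, nearer element: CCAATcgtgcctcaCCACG
Calr: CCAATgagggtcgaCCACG
Canx: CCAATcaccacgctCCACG
Pdia6: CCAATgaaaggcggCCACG

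The Hspa5 element lay nearest its start, from position -65 to -47, counting the base before the annotated start as -1. The Hsp90b1 elements ran from -212 to -194 on the gene's strand and from -107 to -89 on the opposite strand. Those of Calr (-162 to -144), Canx (-145 to -127) and Pdia6 (-98 to -80) were single, and the Calr element was on the opposite strand. Genes with an ERSE window numbered 37, of which 5 were the members above and 5 others stood on the pathway lists used below (Creld2, Derl3, Dnajc3, Ero1b and Syvn1). The second form ERSE-II, ATTGGNCCACG, was found in 12 windows (0.0365%). Herpud1 was the only member that held it, as ATTGGgCCACG from -52 to -42. The core of the amino acid response element, TGATGNAA, bound by ATF4, was found in 1304 windows (3.97%), and again Herpud1 was the only member, with TGATGcAA on the opposite strand from -112 to -105. The XBP1 element, spelled TGACGTGG or TGACGTGT, was found in 374 windows (1.14%) and in none of the 10. No hit overlapped another. A match describes the letters and does not show that a factor binds, and a missing match says only that these letters are not in this window.

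The 250 bases before the start are given for 4 genes on which the measurements below turn, on the strand of each gene with the matches above in capitals. Calr is shown for the difference between tissues, Pdia4 and Ddit3 for their calls in GWAT, and Herpud1 for its pair of different elements.
Calr, chr8:84846932-84847181, minus strand: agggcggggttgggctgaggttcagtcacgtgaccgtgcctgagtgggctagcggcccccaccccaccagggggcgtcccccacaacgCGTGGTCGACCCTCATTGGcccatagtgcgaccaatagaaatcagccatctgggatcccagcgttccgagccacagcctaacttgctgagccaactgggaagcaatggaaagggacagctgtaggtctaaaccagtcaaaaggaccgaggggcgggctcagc
Herpud1, chr8:94386179-94386428, plus strand: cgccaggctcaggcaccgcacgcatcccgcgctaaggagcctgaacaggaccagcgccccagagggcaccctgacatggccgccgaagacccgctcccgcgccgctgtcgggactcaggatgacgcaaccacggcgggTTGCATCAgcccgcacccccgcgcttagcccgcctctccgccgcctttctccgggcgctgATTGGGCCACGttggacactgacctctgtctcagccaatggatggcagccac
Pdia4, chr6:47813513-47813762, minus strand: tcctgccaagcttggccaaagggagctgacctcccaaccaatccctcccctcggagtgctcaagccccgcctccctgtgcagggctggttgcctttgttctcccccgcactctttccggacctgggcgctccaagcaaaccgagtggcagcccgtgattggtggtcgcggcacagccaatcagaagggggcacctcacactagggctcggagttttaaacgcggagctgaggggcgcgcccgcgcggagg
Ddit3, chr10:127290543-127290792, plus strand: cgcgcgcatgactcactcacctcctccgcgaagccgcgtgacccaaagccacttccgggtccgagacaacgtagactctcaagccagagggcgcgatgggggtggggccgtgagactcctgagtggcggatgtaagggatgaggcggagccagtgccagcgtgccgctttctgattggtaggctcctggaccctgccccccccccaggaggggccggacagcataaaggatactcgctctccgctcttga
The Pdia4 and Ddit3 windows held none of the 4 motifs. The guanine and cytosine content of these stretches was 62.0% for Calr, 69.2% for Herpud1, 65.2% for Pdia4 and 64.8% for Ddit3.

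Values below are normalized intensities in linear units, from which no background had been subtracted. Differences and tests are on the log2 scale after background correction, so a fold there exceeds the ratio of the intensities for dim probes. The background threshold of an array was the 95th percentile of 1528 odorant and related receptor probes, which lay between 121 and 124 in liver and between 70.3 and 73.8 in GWAT. A probe was tested in a tissue where it passed the threshold on 3 or more of 6 arrays, which kept 13 member probes of 9 genes in liver and 12 of 8 genes in GWAT. Intensities are not compared between probes, nor by a test between tissues, which were normalized separately. In these bulk samples, fewer cells of a type and less RNA per cell cannot be told apart.

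The genotype comparison asks whether loss of Cav1 goes with a change of these transcripts. In liver none of the 13 tested probes passed an adjusted p of 0.05 (limma), against 9 of 15408 probes on the whole array (0.0584%), of which 5 were higher (0.0325%) and 4 lower (0.026%) in the knockout. At an unadjusted p under 0.05 there were 2 member probes, of Calr and Xbp1, and 1528 probes in all. The log2 differences ran from -0.19 to 0.48 with a median of 0.01, 7 above and 6 below 0, beside a median of -0.02 over all probes. In GWAT 3 of the 12 probes passed, or 25%, beside 4800 of 21305 probes in all (22.5%), so the share was near the background. The 3 were the pair of Ddit3 probes, higher in the arrays labelled knockout, and Pdia4, lower there. Among all probes 2377 were higher (11.2%) and 2423 lower (11.4%). The member differences in GWAT ran from -0.26 to 0.65 with a median of -0.04, beside 0.01 over all probes.

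**Figure D1:**
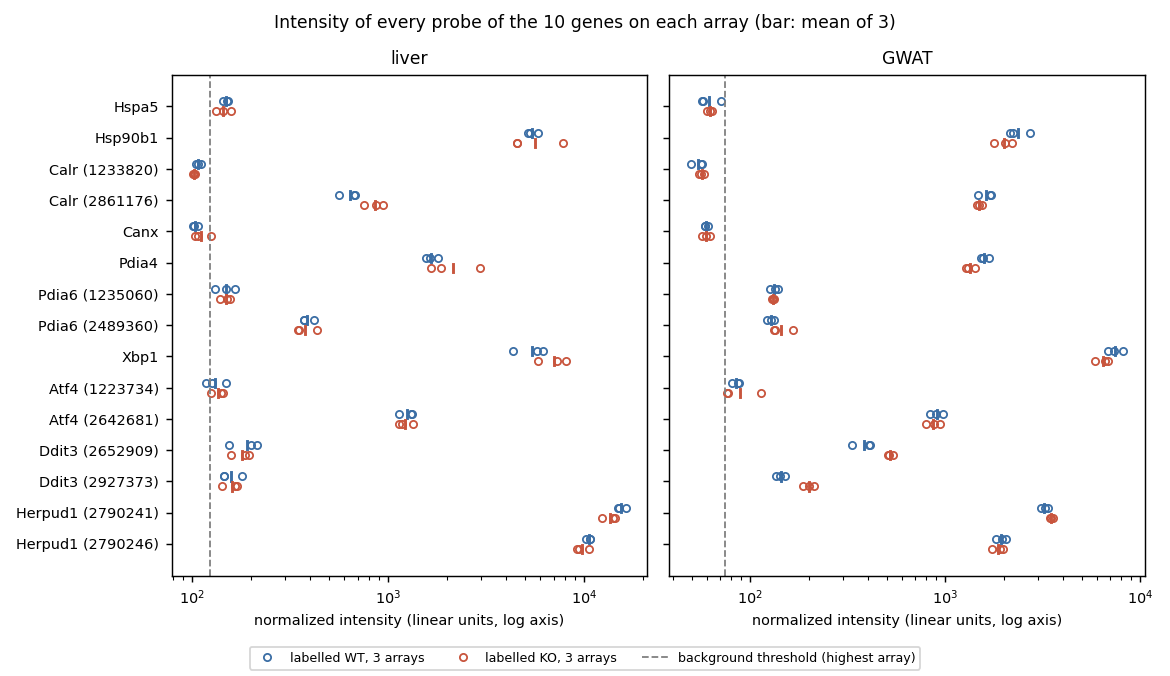
Normalized intensity (log axis) of each of the 15 member probes on every array, liver on the left and GWAT on the right; open circles are single arrays, bars are means of 3, and the dashed line is the highest background threshold among the arrays of the tissue. The lower Calr probe lies below the line in both tissues, and so does Canx except on liver knockout replicate 3. Hspa5 lies a little above the line in liver and below it in GWAT. The Ddit3 circles of the GWAT groups do not overlap.

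Among the chaperones, Hspa5 encodes BiP, the ER Hsp70 that binds unfolded chains and holds the sensors inactive. Its single probe was dim. Which transcript forms the probe targets could not be checked, so its values may not stand for BiP transcripts as a whole. In liver it read 144, 152 and 152 in wild type and 158, 133 and 144 in the knockout, above background on 6 of 6 arrays. The groups overlapped, and the log2 difference was -0.15 (95% interval -0.65 to 0.35, limma adjusted p = 0.871). In GWAT it read 70.3, 56.5 and 57.4 on arrays labelled wild type and 63.8, 61.8 and 59.8 on arrays labelled knockout. It was not above background on any of these 6 arrays, so this probe gives no genotype difference for BiP in fat.

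Hsp90b1 encodes GRP94, the ER Hsp90. In liver the wild type read 5169, 5833 and 5323, and the knockout read 4553, 4567 and 7812. Knockout replicate 3 was the highest array and the other knockout arrays were the lowest, so the mean difference was near 0 (log2 0.01, SE 0.17, limma adjusted p = 0.996). Without that array it was -0.26, with an adjusted p of 0.352. In GWAT the arrays labelled wild type read 2709, 2150 and 2227 and the arrays labelled knockout 2034, 1776 and 2210. The groups overlapped (log2 -0.24, SE 0.11, limma adjusted p = 0.128).

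Calr encodes calreticulin, the soluble lectin chaperone that holds monoglucosylated glycoproteins for folding. Of its probes, ILMN_2861176 was well above background. In liver it read 667, 565 and 679 in wild type and 756, 944 and 864 in the knockout. All 3 knockout arrays lay above all wild-type arrays, with a log2 difference of 0.48 (SE 0.15, 95% interval 0.17 to 0.80), which did not pass over all probes (limma, adjusted p = 0.349). In GWAT it read 1717, 1693 and 1466 on arrays labelled wild type and 1455, 1494 and 1536 on arrays labelled knockout. These overlapped (log2 -0.12, SE 0.080, limma adjusted p = 0.312). The other Calr probe, ILMN_1233820, was not above background on any array of either tissue, with values from 101 to 112 in liver and from 49.5 to 58.2 in GWAT. Canx encodes calnexin, the membrane-bound counterpart of calreticulin. Its probe was above background on 1 array, liver knockout replicate 3 (125), and so was not tested. The other liver arrays read between 102 and 107 and the GWAT arrays between 56.3 and 62.1. Which transcript forms the Canx probe and the dim Calr probe target could not be checked either.

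Pdia4 and Pdia6 encode protein disulfide isomerases, which form and reshuffle disulfide bonds in the ER. Pdia4 in GWAT read 1677, 1553 and 1532 on arrays labelled wild type and 1415, 1273 and 1307 on arrays labelled knockout. The groups did not overlap, and the level was lower in the arrays labelled knockout by a log2 difference of -0.26 (SE 0.075, fold 0.834, limma adjusted p = 0.0291). The call was lost in 6 of 15 alternative settings, among them leaving out wild type replicate 1 (adjusted p = 0.0695) or 2 (0.0724) or knockout replicate 2 (0.128) or 3 (0.0841). In liver Pdia4 read 1641, 1801 and 1561 in wild type and 1664, 1859 and 2936 in the knockout. Replicate 3 of the knockout stood far above the other 5 arrays, and the difference of 0.34 did not pass (SE 0.18, limma adjusted p = 0.558) and was 0.08 without that array.

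Pdia6 had a pair of probes, and neither was called in either tissue. On the brighter liver probe, ILMN_2489360, wild type read 374, 373 and 419 and the knockout 347, 351 and 432 (log2 -0.07, SE 0.17). On the same probe GWAT read 132, 127 and 122 in arrays labelled wild type and 134, 132 and 165 in arrays labelled knockout (log2 0.24, SE 0.15, limma adjusted p = 0.285). The groups overlapped in both tissues. The second probe, ILMN_1235060, ranged from 130.3 to 166 in liver and from 126 to 139 in GWAT, with log2 differences of 0.04 and -0.04.

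Herpud1 encodes a membrane protein of the ER-associated degradation complex, which moves misfolded proteins out to the proteasome. It was bright in liver. Probe ILMN_2790241 read 15029, 14953 and 16332 in wild-type liver and 12338, 14391 and 14045 in the knockout. The groups did not overlap, and the difference of -0.19 did not pass (SE 0.096, limma adjusted p = 0.544). In GWAT the same probe read 3087, 3228 and 3363 on arrays labelled wild type and 3580, 3444 and 3492 on arrays labelled knockout. Here too the groups did not overlap, in the opposite direction, and the difference of 0.12 did not pass (SE 0.064, limma adjusted p = 0.203). The second probe, ILMN_2790246, gave overlapping groups in both tissues, with log2 differences of -0.12 in liver and -0.05 in GWAT. The probes thus differed in sign in GWAT.

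Xbp1 encodes the transcription factor made active by IRE1 splicing, and its probe counts transcripts without telling spliced from unspliced. In liver it read 6148, 5764 and 4368 in wild type and 8063, 5862 and 7274 in the knockout. The groups overlapped through knockout replicate 2, and the difference of 0.39 did not pass (SE 0.15, 95% interval 0.07 to 0.70, limma adjusted p = 0.424). In GWAT it read 7295, 6869.9 and 8197 on arrays labelled wild type and 5868, 6566 and 6802 on arrays labelled knockout. All arrays labelled knockout were lower, by a log2 difference of -0.22 that did not pass (SE 0.083, limma adjusted p = 0.0816).

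Atf4 encodes the transcription factor whose translation rises under PERK signalling, so its transcript is only part of its control. The brighter probe, ILMN_2642681, read 1322, 1309 and 1136 in wild-type liver and 1142, 1184 and 1347 in the knockout. It read 975.0, 835 and 898 on GWAT arrays labelled wild type and 793, 879 and 934 on those labelled knockout. The groups overlapped in both tissues, with log2 differences of -0.04 (95% interval -0.32 to 0.24) in liver and -0.06 (95% interval -0.26 to 0.14) in GWAT. The dimmer probe, ILMN_1223734, ranged from 118 to 149 in liver and from 75.8 to 113 in GWAT, where knockout replicate 3 alone exceeded 100, and was not called.

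Ddit3 encodes CHOP, the transcription factor induced by ATF4 that is linked to cell death under prolonged ER stress. In GWAT probe ILMN_2652909 read 331, 407 and 410.4 on arrays labelled wild type and 516, 538 and 508 on arrays labelled knockout. Probe ILMN_2927373 read 135, 142 and 150.5 on the former and 199, 187 and 213 on the latter. On both probes every array labelled knockout lay above every array labelled wild type. The log2 differences were 0.50 (SE 0.11, fold 1.41, limma adjusted p = 0.00731) and 0.65 (SE 0.12, fold 1.57, limma adjusted p = 0.00369). The ratios of the uncorrected means were 1.36 and 1.40. The calls held in 15 of 15 and 14 of 14 alternative settings, with adjusted p up to 0.0418 and 0.0178. In liver the first probe read 199.98, 154 and 216 in wild type and 196, 187 and 157 in the knockout, and the second 181, 145 and 146 against 166, 170.3 and 142. These overlapped, with differences of -0.12 (SE 0.28) and 0.07 (SE 0.26).

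**Figure D2:**
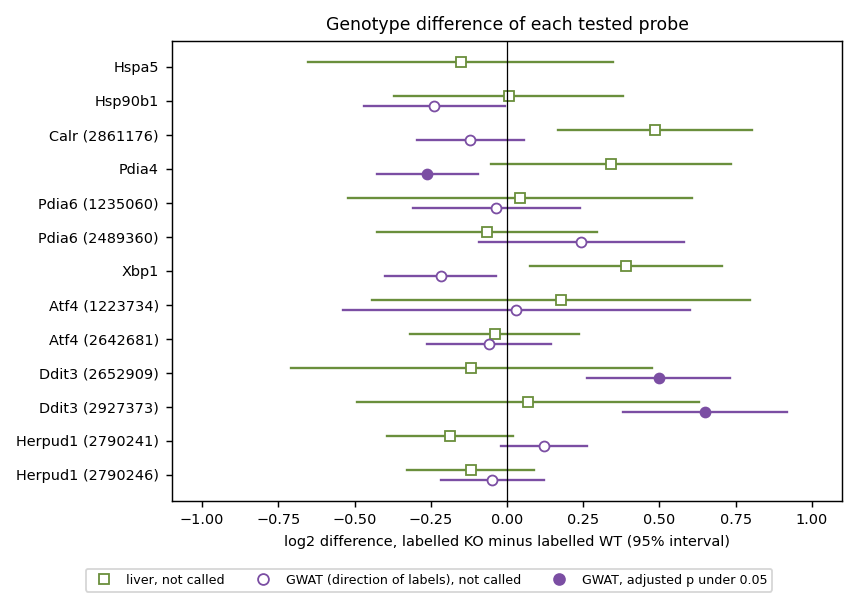
Log2 difference, arrays labelled knockout minus arrays labelled wild type, with its 95% interval, for each tested member probe in liver (squares) and GWAT (circles); filled symbols passed an adjusted p of 0.05. The filled circles are the Ddit3 probes at 0.50 and 0.65 and Pdia4 at -0.26, and no liver square is filled.

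Groups without overlap, a looser description than the test, were seen for 2 of 13 member probes in liver (Calr ILMN_2861176 and Herpud1 ILMN_2790241), beside 2370 of 15408 probes in all (15.4%). In GWAT there were 5 of 12, namely Ddit3 on both probes, Pdia4, Xbp1 and Herpud1 ILMN_2790241, beside 8376 of 21305 (39.3%). Both counts were near the share over the array.

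Whether the genotype difference itself differed between tissues was tested as the interaction over all 12 arrays, on the 12 member probes measured in both tissues. Calr was the member that passed. Its difference was -0.61 in GWAT relative to liver (SE 0.17, limma adjusted p = 0.0404), from a difference of 0.48 in liver and -0.12 in GWAT. All livers came from mice of 12 weeks and all GWAT from mice of 8 weeks, so tissue and age cannot be told apart in this test. Among all 14365 probes, 879 passed (6.12%), of which 452 were higher (3.15%) and 427 lower (2.97%) in GWAT relative to liver, so that 1 of 12 (8.33%) was near the background. Xbp1 (-0.61, SE 0.18, adjusted p = 0.0600) and Pdia4 (-0.60, SE 0.22, adjusted p = 0.114) had differences of like size that did not pass. Those of the Ddit3 probes were 0.61 (SE 0.32) and 0.58 (SE 0.30), with adjusted p of 0.271 and 0.273, so the GWAT rise of Ddit3 was not shown to differ from liver. With the sign of the GWAT comparison turned, as an exchange of labels would do, the Calr difference was -0.36 and no longer passed (limma, adjusted p = 0.191). The Calr call was also lost on leaving out any one of 8 arrays, with adjusted p from 0.0525 to 0.113.

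Liver knockout replicate 3 stood apart for some of these genes. It was the highest of the 6 liver arrays for 4 of the 13 member probes (Hsp90b1, Pdia4, Pdia6 ILMN_2489360 and Atf4 ILMN_2642681) and for 20.4% of the 9033 genes tested there, while it was the lowest for 30.2% of them. Pdia3 and Hspa1a are named after their values were seen. Pdia3, the isomerase that works with calreticulin and calnexin, read 2496, 2716 and 3002 in wild type and 2126, 2623 and 4115 in the knockout. Hspa1a, a cytosolic heat shock gene outside this response, read 200, 460 and 388 in wild type and 211, 331 and 763 in the knockout. Across probes, pairs of knockout livers correlated with r of 0.973 to 0.986, and pairs of wild-type livers with r of 0.988. The lists used below went different ways on this array: it was the highest for 1 and the lowest for 5 of 15 ER chaperones and co-chaperones, the highest for 4 and the lowest for 3 of 14 disulfide isomerases and redox factors, and the highest for 7 and the lowest for 1 of 10 cytosolic heat shock genes. What sets this array apart was not tested.

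**Figure D3:**
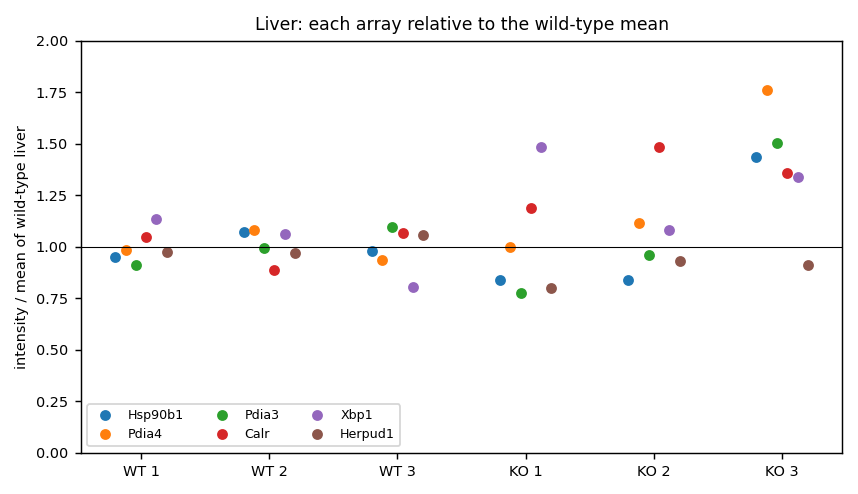
Intensity of 6 genes on each liver array divided by the mean of the 3 wild-type arrays, with the brightest probe of each gene. On knockout replicate 3 Hsp90b1, Pdia4 and Pdia3 stand above every other array, while Calr and Xbp1 are raised on further knockout arrays.

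The genes most alike to the dim Hspa5 probe across the 6 liver arrays, by Pearson's r of the tested brightest probes, were Arid1a (r = 0.975), Sec61a1 (0.974), Gprc5c (0.968) and Them5 (0.968). With 6 arrays and 9033 genes compared, values of this size are a description. In GWAT, where the Hspa5 probe lay below background, no likeness is read from it, although the same rule named Sgpp1, Myo5b, Cap1 and Piga.

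The wider pathway was followed through 7 lists of 153 genes, without the members, of which 145 were on the array; each gene stood by its brightest tested probe. In liver none of 122 tested genes passed (limma, adjusted p under 0.05), and their median difference was -0.06. The smallest adjusted p was that of Herpud2, a relative of Herpud1, which read 155, 173 and 142 in wild type and 189, 203 and 242 in the knockout (log2 0.90, SE 0.24, adjusted p = 0.274). Its other 3 probes gave 0.41, 0.69 and 0.42. Cth, the cystathionine-cleaving enzyme that ATF4 raises, read 202, 220 and 241 in wild type and 257, 324 and 342 in the knockout (log2 0.74, SE 0.20, adjusted p = 0.300). Neither pair of groups overlapped, and both genes passed once knockout replicate 1 was left out (adjusted p = 0.0465 and 0.0280) and with array weights (0.0235 and 0.0141). Over all liver probes 296 and 707 passed in these settings, beside 9 in the main fit. The best of the other lists were Fkbp11 (-0.25), Prdx4 (0.24), Creb3l3 (0.32), Ostc (0.32) and Hspa4l (0.46), which did not pass. Ostc passed with array weights (adjusted p = 0.0453).

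In GWAT 39 of 127 tested list genes passed, 11 higher and 28 lower in the arrays labelled knockout, with a median difference of -0.06. Over all probes the shares were 11.2% higher and 11.4% lower, counted over probes and not over brightest probes. Of the 39, 20 passed in every alternative setting, 4 higher and 16 lower. Markers of other cell types moved with these groups. Summed intensity of the 9 macrophage markers on the array was 18887 to 21423 on arrays labelled wild type and 11876 to 13410.5 on those labelled knockout, with 4 of 7 tested markers lower. Clec4f and Itgax were not above background. The 2 brightest macrophage markers, Lgals3 (log2 -1.62, limma adjusted p = 5.43e-05) and Lyz2 (-0.21, adjusted p = 0.0617), weigh most in the sum. For the 8 fibroblast markers the sums were 34408 to 36230.0 and 28232 to 30839, with 5 lower and 1 higher. Dcn, with means of 23512 and 21076, weighed most in the sum and did not pass (log2 -0.16, limma adjusted p = 0.0885). The 5 lower markers were Col1a1, Col1a2, Col3a1, Dpt and Pdgfra, and the higher one was Pi16 (0.97). The 5 mast cell markers gave 1405 to 1739 and 959 to 1040, with 4 lower. The 6 smooth muscle markers gave 8861 to 10742 and 12186 to 20389, with 4 of 5 tested higher, and the 8 skeletal muscle markers 1138 to 1196 and 2177 to 3734, with 3 of 6 tested higher and Myh4 below background. The sums of the 9 adipocyte markers overlapped, from 47493 to 49823 and from 47436 to 48993, although 3 markers were higher and 2 lower in the arrays labelled knockout. Of 6 tested duct epithelium markers 2 were higher, Fxyd4 (log2 4.17, limma adjusted p = 1.82e-05) and Aqp2 (2.39, adjusted p = 0.00115). Krt8, Krt18, Krt19 and Cdh1 did not pass. Sums of the 7 duct markers on the array overlapped, from 1345 to 2158 and from 1722 to 2670. Of the endothelial markers 1 of 6 was lower, Pecam1 (-0.26, limma adjusted p = 0.0479). Of 3 B and plasma cell and 4 mesothelial markers none passed. Jchain and Ms4a1 were not above background. The 8 hepatocyte markers gave sums of 17045 to 18612 and 22318 to 24804 in GWAT, with 1 of 4 tested higher. That marker, Cyp2e1, made up nearly all of the sum, with means of 17516 and 23380. The 8 exocrine pancreas markers gave 7060 to 9112 and 10115 to 10864.5, with 1 of 4 tested higher and 1 lower. Most of this sum was Amy2a5, the higher one (means 6526 and 9435), and Cela1, the lower one (1065 and 715). Amy2a5 was bright in liver too, with a mean of 10996 in wild type. In each of these 2 lists 4 markers were above background on no GWAT array. The part of these cells in the GWAT results was not tested. All 9 adipocyte markers were above background on every GWAT array. Of the 8 hepatocyte markers 6 were so on every liver array, and Fabp1 on none. The macrophage sums in liver were 3164 to 3791 in wild type and 4019 to 4204 in the knockout, with 1 of 7 tested markers higher. That marker was Lyz2, with means of 455 and 820 (log2 1.00, limma adjusted p = 0.0343). The other tested macrophage markers did not pass in liver, among them Adgre1 (0.12), Clec4f (0.16) and Cd163 (-0.09).

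**Figure D4:**
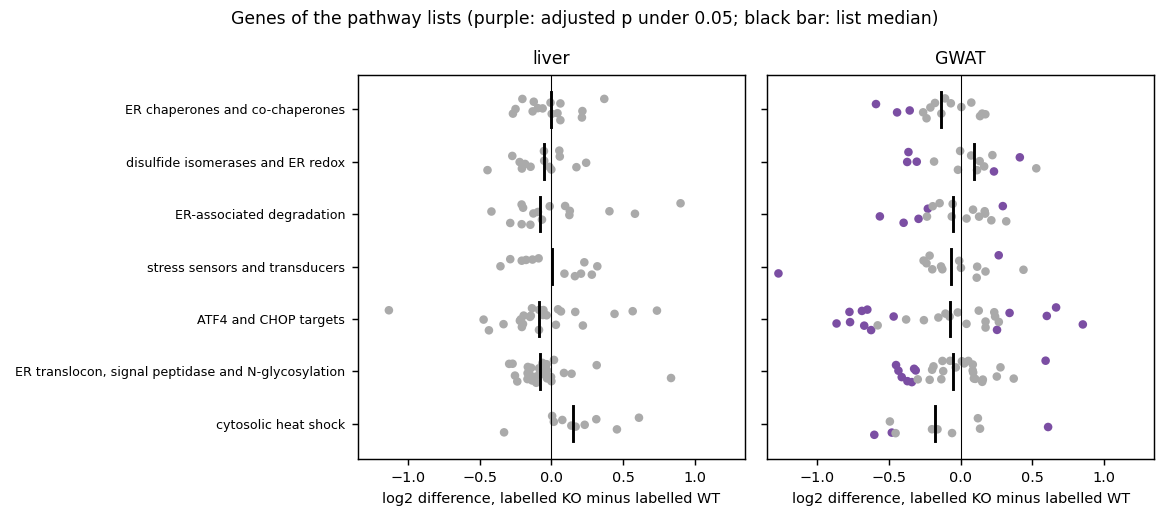
Log2 difference (arrays labelled knockout minus wild type) of the tested genes of 7 lists in liver (left) and GWAT (right); each point is a gene, purple points passed an adjusted p of 0.05, and black bars are list medians. No liver point is purple, and most purple GWAT points of the chaperone and translocon lists lie below 0.

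Of 15 tested ER chaperones and co-chaperones, none rose, 3 fell and 12 did not pass in GWAT, with a median difference of -0.13. Sil1, the nucleotide exchange factor of BiP, read 537, 710 and 706 on arrays labelled wild type and 446, 444 and 440.0 on those labelled knockout (log2 -0.59, SE 0.11, limma adjusted p = 0.00430). Fkbp11, an ER prolyl isomerase of secretory cells, fell by 0.44 (adjusted p = 0.00734). Sdf2l1, a BiP-associated factor, fell by 0.36 (adjusted p = 0.0259), and its call was lost on leaving out any of 5 arrays (adjusted p up to 0.0763). The listed genes with an ERSE went both ways and none passed. Creld2 had a difference of -0.26 (adjusted p = 0.0603), Ero1b -0.19, Dnajc3 0.07 and Syvn1 0.09, while Derl3 was not tested. Among 14 disulfide isomerases and redox factors 2 rose and 3 fell, with a median of 0.09. P4hb, the archetypal protein disulfide isomerase and subunit of collagen prolyl hydroxylase, read 8611, 9205 and 8953 against 7095, 6901 and 6823 (log2 -0.36, SE 0.060, adjusted p = 0.00178). Prdx4, an ER peroxidase, fell by 0.31 and Tmx4, a membrane thioredoxin protein, rose by 0.41. Both calls were lost on leaving out at least 1 array, with adjusted p up to 0.0807 for Prdx4 and 0.0520 for Tmx4.

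Of 17 degradation genes, 1 rose and 4 fell in GWAT, with a median of -0.06. The calls with the smallest adjusted p were Man1b1 (-0.56), Aup1 (-0.29) and Ufd1 (0.29), with adjusted p up to 0.0616, 0.0685 and 0.0962 when an array was left out. Man1b1 lost its call on leaving out either of 2 arrays, Aup1 any of 3 and Ufd1 any of the 6. The other Aup1 probe did not pass (-0.20, adjusted p = 0.115). Of 14 sensors and transducers, 1 rose and 1 fell. Creb3l1, encoding the ER-membrane transcription factor OASIS that drives collagen genes in bone, read 163, 176 and 154 against 102, 95.1 and 85.3 (log2 -1.27, SE 0.16, adjusted p = 0.000277). Its call held in 15 of 15 alternative settings, but the size of the difference ran from -1.38 to -0.77 over them. Rtcb, which ligates the spliced Xbp1 transcript, rose by 0.26 with adjusted p = 0.0352, and lost its call in 7 of 15 settings, 4 of them with an array left out (adjusted p up to 0.132). Among 30 translocon, signal peptidase and glycosylation genes, 1 rose and 7 fell. Spcs3, a signal peptidase subunit, fell by 0.41 on its brightest probe, while its other probe gave -0.05. Prkcsh, the glucosidase II beta subunit, fell by 0.37 and by 0.57 on its other probe. Srp72 of the signal recognition particle rose by 0.59, and by 0.35 to 0.64 over the alternative settings. Cytosolic heat shock genes gave 1 that rose (Hsp90aa1, 0.61) and 2 that fell (Hspb1 by 0.60, Bag3 by 0.48) of 10, and the Hsp90aa1 call was lost on leaving out any of 3 arrays (adjusted p up to 0.0805).

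The targets of ATF4 and CHOP are the list closest to Ddit3. Of 27 tested in GWAT, 5 rose and 8 fell in the arrays labelled knockout, and 14 did not pass, with a median difference of -0.08. The 3 with the smallest adjusted p all fell. Nupr1, a stress-induced chromatin protein, read 7674, 8069 and 8566 against 4778, 5272 and 5250 (log2 -0.67, SE 0.070, adjusted p = 8.98e-05). Chac1, a glutathione-degrading enzyme and a known ATF4 target, read 1111, 1005 and 1024 against 679, 646 and 724 (log2 -0.65, SE 0.082, adjusted p = 0.000329). Cebpb, the dimer partner of CHOP, read 3192, 2866 and 2693 against 2002, 1814 and 1897 (log2 -0.62, SE 0.080, adjusted p = 0.000361).

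The other called targets are named after their values were seen. The falling ones were Ddit4 (-0.87), an inhibitor of mTORC1, Atf3 (-0.78), Ppp1r15a (-0.69), the phosphatase subunit GADD34 that reverses eIF2α phosphorylation, and Vldlr (-0.47). Over the alternative settings the Atf3 difference ran from -0.86 to -0.50. Aldh1l2 fell too, but was above background on 1 of 3 arrays labelled knockout, and its difference was -0.77 or, with an offset of 50, -0.35. The rising ones were Trib3 (0.85), a pseudokinase induced by CHOP, Phgdh (0.66), the first enzyme of serine synthesis, Bbc3 (0.60), the apoptosis gene PUMA, Asns (0.34), asparagine synthetase, and Cebpg (0.25). Asns lost its call without labelled wild type replicate 2 (adjusted p = 0.0545) and Cebpg on leaving out any of 4 arrays (up to 0.0902). Targets thus went both ways beside the rise of Ddit3. The part of cell makeup in these differences was not tested.

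**Figure D5:**
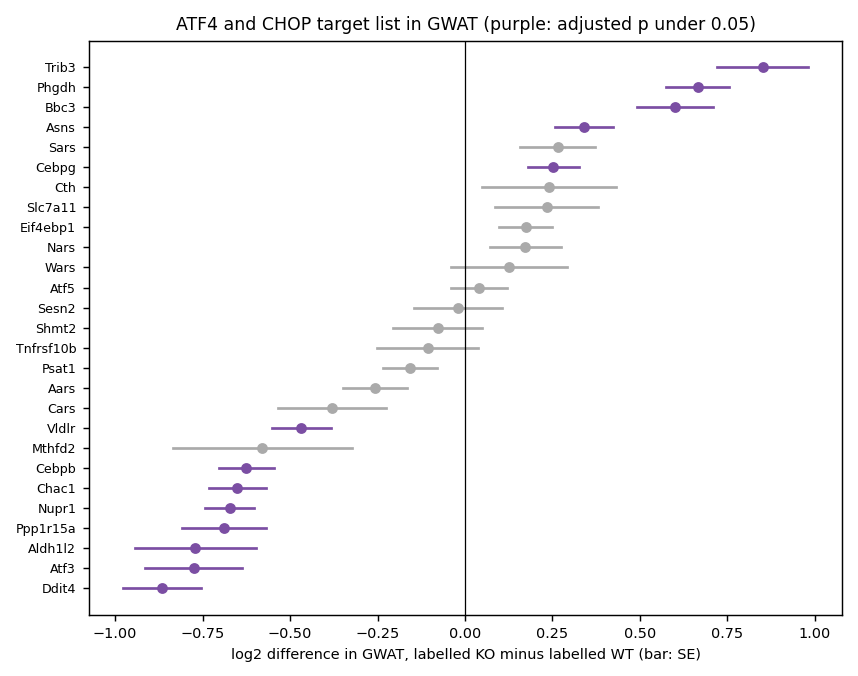
Log2 difference in GWAT (arrays labelled knockout minus labelled wild type) with its SE for the 27 tested ATF4 and CHOP targets, ordered by size; purple marks an adjusted p under 0.05. The called genes run from Ddit4 at -0.87 to Trib3 at 0.85, with 8 below and 5 above 0.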

How the data were processed

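The deposited values were linear probe intensities, and the authors had quantile-normalized them within each tissue, as found from the values: sorted values of the arrays lay within 0.461% of each other in liver and 1.22% in GWAT. The sources used here do not name the software. The lowest intensity was 84.0 in liver and 40.6 in GWAT, so no background had been subtracted. Tables with 48 columns named by chip position were not used. Of the probes, 34885 had 1 symbol in the platform annotation, 18 several and 10378 none, and 34807 matched RefSeq.

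Background correction used limma 3.58.1 (R 4.3.3) and its normexp model, with 1528 olfactory, vomeronasal and trace amine receptor probes as controls and an offset of 16, and taken to log2. Each probe was tested on its own by lmFit and eBayes (intensity trend on), two-sided, Benjamini-Hochberg adjusted over all probes tested, at 0.05. The fits were tested on simulated data. The rule named every member probe, Cav1, per list up to 3 called genes (otherwise the gene of smallest p), the 4 genes most like Hspa5, and the 2 brightest markers of a type. Of the markers, the 2 brightest are named for macrophages and exocrine pancreas in GWAT. Other markers are named after their values were seen, some of them as not above background. Members and lists were chosen with earlier results of these data known. The number of arrays limits the precision. Alternatives were no background correction, an offset of 50, no filter, a 99th percentile filter, the brightest probe per gene, no trend, robust eBayes, array weights, the replicate block, joint normalization and each array left out. Planned protein features were not analysed here.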

Additional observations from a re-analysis of the deposited data

Results flagged for a closer look

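The genotype difference of Calr (probe ILMN_2861176) was different in the 2 tissues by a direct test. The interaction was -0.61 on the log2 scale (SE 0.17, limma adjusted p = 0.0404), from 0.48 in liver and -0.12 in GWAT, neither of which passed within its tissue. It was negative in all 18 alternative settings, from -0.70 to -0.51, and passed in 8 of them. With the sign of the GWAT comparison turned it was -0.36 with an adjusted p of 0.191. It was lost on leaving out any of 8 arrays. The mice were 12 weeks old for liver and 8 weeks old for GWAT, so a difference between tissues cannot be told apart from one between ages.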

How the results depend on the processing

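The number of arrays limits every count here; all alternatives for Cav1 were added after the data were seen, as were, for single list genes, those other than background correction and filter. Why a count or a call changed from one setting to another was not tested.

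Member probes called in liver rose from 0 to 1 with array weights (Calr, 0.59, adjusted p = 0.0146). In GWAT the count was 2 or 3 in each setting; Pdia4 was also lost with no filter (adjusted p = 0.0538) and no trend (0.0927). For the difference between tissues, 1 became 3 without background correction, 2 with an offset of 50, and 0 with no trend, with the replicate block and with the GWAT sign turned; leaving out an array gave 0 to 2. Over all probes, liver gave 9, but 15 with no filter, 0 with no trend, 707 with array weights and 0 to 296 with an array left out (296 without knockout replicate 1, 42 without knockout replicate 3, 2 without wild type replicate 1, and 0 on leaving out wild type replicates 2 and 3 in turn or knockout replicate 2). GWAT gave 4800, but 2886 with the brightest probe per gene and 2806 to 4358 with an array left out (2806 without wild type replicate 2, 2827 and 3130 without knockout replicates 2 and 3). The difference gave 879, but 1516 without background correction, 566 with no trend and 397 to 1476 with an array left out. Liver Cav1 lost its call with no trend (0.128) and on leaving out any wild-type array or knockout replicate 2 (0.0681 to 0.135).

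Signs turned with array weights for liver Pdia6 ILMN_1235060 (-0.16) and Hsp90b1 (-0.19) and GWAT Atf4 ILMN_1223734 (-0.074). Leaving out an array turned the sign of uncalled log2 differences, given as lowest to highest, in liver for Atf4 ILMN_1223734 (-0.051 to 0.48), Pdia6 ILMN_1235060 (-0.22 to 0.26), Hspa5 ILMN_1255561 (-0.33 to 0.028), Pdia6 ILMN_2489360 (-0.20 to 0.0065), Hsp90b1 ILMN_2504433 (-0.26 to 0.14), Atf4 ILMN_2642681 (-0.12 to 0.012), Ddit3 ILMN_2652909 (-0.42 to 0.086) and Ddit3 ILMN_2927373 (-0.067 to 0.32). It did so in GWAT for Atf4 ILMN_1223734 (-0.33 to 0.22), Pdia6 ILMN_1235060 (-0.087 to 0.0097), Atf4 ILMN_2642681 (-0.12 to 0.0084) and Herpud1 ILMN_2790246 (-0.094 to 0.0021). It did so for the difference between tissues for Atf4 ILMN_1223734 (-0.51 to 0.082), Pdia6 ILMN_1235060 (-0.30 to 0.18), Hsp90b1 ILMN_2504433 (-0.38 to 0.019) and Atf4 ILMN_2642681 (-0.077 to 0.058).

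The replicate block gave 12, 4586 and 676 probes and 0, 3 and 0 member probes for liver, GWAT and the difference, where Calr had an adjusted p of 0.0807. It also lost the calls of 3 list genes in GWAT, Ufd1, Edem1 and Rtcb. In the check of replicate numbers, r between same-numbered wild-type and knockout samples was -0.03 to 0.02 in liver and -0.01 to 0.11 in GWAT. Such low values can only be r after the level common to the arrays was taken out of each probe. They are therefore not to be compared with the r across probes given above for pairs of livers. Whether same-numbered samples share more than a number was not tested. Replicate 3 of GWAT was the only one that correlated best with its own number, and no liver replicate did.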
